A study of Mus musculus with 4 samples.

Results

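Small nucleolar RNAs (snoRNAs) guide the chemical modification of ribosomal and spliceosomal RNA, and in mammals most are cut from the introns of longer host transcripts. Some hosts encode ribosomal or translation proteins, while others, such as Gas5 and the Snhg genes, are spliced without a conserved reading frame and are known mainly for the snoRNAs that they carry. Many of these noncoding hosts start with a C and a run of pyrimidines, as ribosomal protein mRNAs do, are loaded onto ribosomes and are then destroyed by nonsense-mediated decay. The snoRNA stays in the nucleus as a snoRNP particle and the spliced exons are exported, so a host gene gives rise to RNAs with different fates.

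The genes described here are the 10 spliced noncoding snoRNA hosts Gas5, Snhg1, Snhg3, Snhg5, Snhg6, Snhg8, Snhg11, Snhg12, Snhg18 and Snhg20, chosen by symbol. The GENCODE M21 annotation used below, however, types Snhg11 as protein-coding. Values were present for 6 of the 10, among 15746 genes and 1013 lncRNAs in all, and Snhg3, Snhg6, Snhg8 and Snhg11 are not analysed here as genes. RNA was sequenced from hearts of adult WT mice, as 2 libraries of isolated mitochondria and 2 libraries of the rest fraction. Per the study's methods, the rest is the pellet of cell debris from a first slow spin. Mitochondria were then spun down from the supernatant, and what stayed in solution was removed. The rest is therefore not the whole of the remaining tissue. No genotype or treatment other than the fractionation separates the groups, and sex, strain and whether 1 or several hearts stood behind a library are not given in the sources used here. The isolated mitochondria, unlike the rest, were treated with digitonin and RNase A, and the fragmentation time of their RNA was set to 1 minute while that of the rest is not given, so fraction and treatment cannot be told apart. The comparison asks which RNAs were found in cardiac mitochondria.

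The values are normalized counts, which are read counts divided by a factor for each library and rounded. Approximately 23500000 to 47400000 reads fell on genes in a library, but only 1150000 and 2080000 of them lay off the mitochondrial chromosome in mitochondria replicates 1 and 2, against 9680000 and 7630000 in rest replicates 1 and 2. Each read was therefore worth more normalized counts in mitochondria (3.87 for replicate 1, 2.55 for replicate 2) than in the rest (0.264 for replicate 1, 0.365 for replicate 2). Cardiomyocyte markers (Myh6, Tnnt2 and 5 others, all 7 listed) summed to 202282 to 271903 normalized counts per library and had a median log2 difference, mitochondria minus rest, of 0.86, with both mitochondrial values above both rest values for 5 of the 7 and below for 1. In contrast, 3 RNAs that are retained in the nucleus (Malat1, Neat1 and Kcnq1ot1) summed to 8699 and 13648 in mitochondria and to 42937 and 45482 in the rest. Erythroid markers summed to 50 and 323 in mitochondria and to 412 and 781 in the rest, and the part of other cells and of nuclear RNA in the results below was not tested.

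The snoRNAs inside the 10 hosts are what the genes are named for, and 4 of them are shown to make plain what separates the classes. In GENCODE M21 (GRCm38), 31 snoRNA loci lie in the introns of the 10 hosts, 9 in Gas5, 8 in Snhg1, 4 in Snhg12, 2 each in Snhg3, Snhg5 and Snhg11 and 1 in each of the others. Of the 31 loci, 18 hold the letters of box C (TGATGA) followed by those of box D (CTGA), which mark the class that guides methylation of ribose. A further 7 hold the letters ACA near the 3′ end, the mark of the class that guides conversion of uridine to pseudouridine, and 6 were counted as holding neither. Gm25187 in Snhg11, counted among these 6, has ACA as its last letters. In the sequences below, capitals mark the letters of box C, box D or ACA.

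Snord47 in Gas5 (chr1:161038082-161038158, plus strand): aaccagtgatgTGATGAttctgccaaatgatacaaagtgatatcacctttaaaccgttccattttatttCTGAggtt
Snord50a in Snhg5 (chr9:88521529-88521600, minus strand): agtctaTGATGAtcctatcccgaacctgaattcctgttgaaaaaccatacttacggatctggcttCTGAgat
Snora61 in Snhg12 (chr4:132310240-132310369, plus strand): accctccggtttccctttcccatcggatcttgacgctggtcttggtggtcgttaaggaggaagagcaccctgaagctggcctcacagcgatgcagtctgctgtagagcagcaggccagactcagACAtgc
Snord87 in Snhg6 (chr1:9942463-9942549, minus strand): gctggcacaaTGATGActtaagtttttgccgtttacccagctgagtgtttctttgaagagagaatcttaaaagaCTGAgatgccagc

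The 31 loci are 60 to 205 bases long. The distance from the snoRNA to the next host exon had a median of 76 bases, and 24 of the 31 loci lay 65 to 83 bases upstream of it, with a range of 65 to 2416. Transcripts that retain an intron are annotated for most hosts, so 27 of the 31 loci overlap an annotated exon of their host, 26 of them over their whole length. Reads that touched more than one gene were excluded from counting by the authors.

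The starts of the hosts were compared because a C followed by pyrimidines at the first base is the hallmark of this gene class. In RefSeq (GRCm38.p6), 9 of the 10 genes have an entry, and 6 of these 9 (66.7%) hold a C followed by at least 4 pyrimidines on the transcribed strand within 10 bases of an annotated start, against 33.3% of all 27025 genes. Within 20 bases the count was again 6 of 9, against 52.6% of all genes. In the 60 bases shown, the annotated start is base 21 and capitals mark the run.

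Gas5, second annotated start (chr1:161035146-161035205, plus strand): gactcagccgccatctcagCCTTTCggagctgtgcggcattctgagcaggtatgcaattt
Snhg12 (chr4:132308658-132308717, plus strand): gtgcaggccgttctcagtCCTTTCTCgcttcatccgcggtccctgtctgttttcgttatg
Snhg8 (chr3:123508297-123508356, minus strand): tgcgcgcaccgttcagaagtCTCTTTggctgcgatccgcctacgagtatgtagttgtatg
Snhg20 (chr11:117076763-117076822, plus strand): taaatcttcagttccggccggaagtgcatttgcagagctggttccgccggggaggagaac

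Snhg20 is shown as a start at which these letters were not found, as were Snhg1, Snhg11 and the first Gas5 start. Snhg3, Snhg5 and Snhg18 hold the letters, and Snhg6 had no entry. The letters were also found for 7 of 12 other noncoding hosts and for 12 of 31 protein-coding hosts with an entry.

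For none of the 6 host genes with values was a difference between mitochondria and rest detectable at this depth. Gas5 had the highest mean of them, 18 normalized counts over the 4 libraries, and ranked 108 of the 1013 lncRNAs. Only Gas5 and Snhg5 reached 10 normalized counts in 2 or more libraries, the condition for the test. Of the 12150 genes tested, limma with Benjamini-Hochberg adjustment called 169 (1.39%) lower and 262 (2.16%) higher in mitochondria at an adjusted p under 0.05. The calls included 0 of the 2 members tested, and 0 members had an unadjusted p under 0.05.

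Gas5, the growth arrest-specific host of 9 snoRNA loci (ENSMUSG00000053332, chr1:161034422-161038539, plus strand), had 23 and 8 normalized counts in mitochondria replicates 1 and 2 and 21 and 20 in rest replicates 1 and 2. The mitochondrial libraries lay on either side of both rest libraries. Means were 15.5 ± 10.6 (SD, n = 2) and 20.5 ± 0.707 (SD, n = 2), and the log2 difference was -0.55 (SE 0.58, 95% interval -2.07 to 0.97, adjusted p = 0.552, limma). The mitochondrial values rested on about 6 and 3 reads, against 79 and 55 in the rest. Without mitochondria replicate 2 the log2 difference was 0.16 and without mitochondria replicate 1 it was -1.26, so no direction can be given for Gas5. Its 5′ part overlaps Zbtb37 on the other strand, which had 46 and 33 normalized counts in mitochondria and 138 and 139 in the rest (log2 difference -1.80, SE 0.26, adjusted p = 0.0469). Whether strand was used in counting is not stated.

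Snhg5, host of the Snord50 pair (ENSMUSG00000097195), had 4 and 10 normalized counts in mitochondria and 9 and 12 in the rest. The groups overlapped, since the second mitochondrial library exceeded the first rest library. The log2 difference was -0.62 (SE 0.62, 95% interval -2.24 to 1.00, adjusted p = 0.53, limma). In the deposited table the gene spans chr9:88495268-88523562 on the minus strand, 28295 bases, whereas GENCODE M21 places it at 88521050 to 88522929, so its level per length is uncertain. A stretch of 233 bases of Snhg5 is about 96% identical to transcripts of 9330159M07Rik (0 and 5 against 16 and 15 normalized counts) and 9430037G07Rik (15 and 10 against 9 and 18), and reads there could have been split among the genes or left out as ambiguous.

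The other 4 hosts lay below the filter, so their log2 differences come from a limma fit without it. Snhg1, the host of 8 snoRNA loci (ENSMUSG00000108414, chr19:8723475-8726443, plus strand), had 8 and 5 normalized counts in mitochondria and 6 and 9 in the rest. Its groups overlapped, with a log2 difference of -0.19 (95% interval -1.56 to 1.18, adjusted p = 0.821).

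Snhg12, host of 4 snoRNA loci (ENSMUSG00000086290, chr4:132308623-132311024, plus strand), had 4 and 15 normalized counts in mitochondria and 8 and 6 in the rest. Mitochondria replicate 2 was the highest and replicate 1 the lowest of the 4 libraries. The log2 difference of 0.17 (95% interval -1.92 to 2.27, adjusted p = 0.894) became 1.01 without mitochondria replicate 1 and -0.67 without mitochondria replicate 2. The higher value rested on about 6 reads and the lower on about 1.

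Snhg18, host of Snord123 (ENSMUSG00000096956, chr15:32240565-32244662, minus strand), was the lowest of the 6, with 4 and 5 normalized counts in mitochondria and 3 and 5 in the rest. Its groups overlapped, and the log2 difference was 0.16 (95% interval -1.12 to 1.44, adjusted p = 0.836).

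Snhg20, which carries a small Cajal body RNA (ENSMUSG00000086859, chr11:117076008-117078955, plus strand), had 4 and 5 normalized counts in mitochondria and 8 and 7 in the rest. It was the only one of the 6 whose fractions did not overlap, with mitochondria lower. Such a separation was seen for 33.8% of all listed genes and for 55.4% of the listed lncRNAs. The log2 difference of -0.63 (95% interval -1.79 to 0.52, adjusted p = 0.392) did not pass the test, and the mitochondrial values rested on about 1 and 2 reads.

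**Figure D1:**
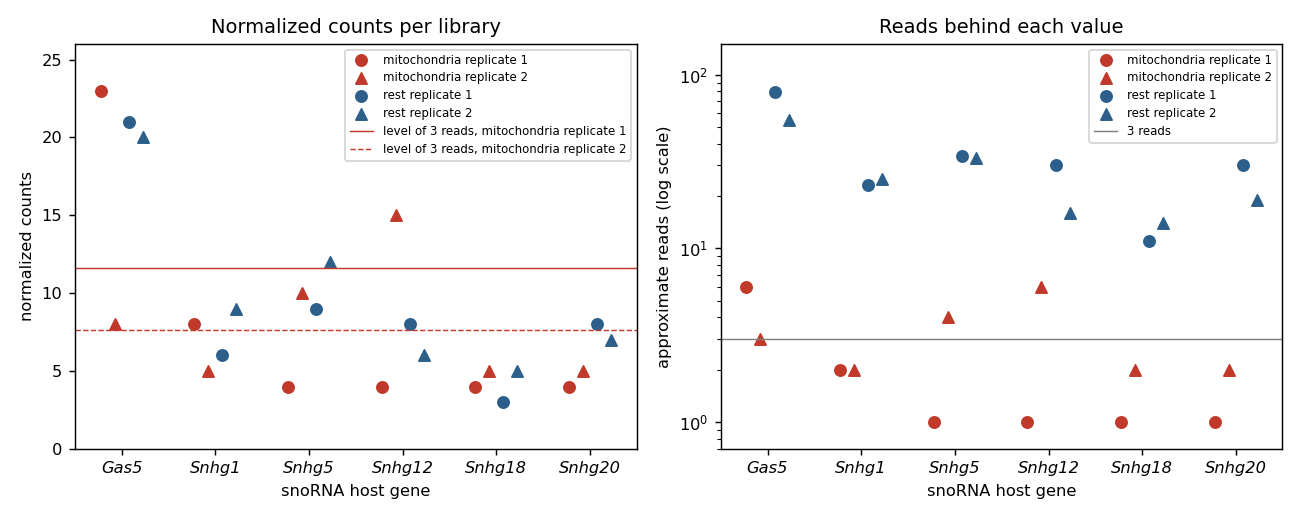
The left panel plots normalized counts and the right panel approximate reads (log scale) of the 6 host genes in each of the 4 libraries, red for mitochondria and blue for rest, circles for replicate 1 and triangles for replicate 2. Horizontal lines mark the level of 3 reads, 11.6 normalized counts for mitochondria replicate 1 and 7.65 for replicate 2, and 5 of 6 genes in mitochondria replicate 1 and 3 of 6 in replicate 2 lie below it, while rest values rest on 11 to 79 reads.

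The depth sets what could be seen for these genes. From the reads, the ratio of mitochondria to rest was 0.674 for Gas5 (95% Poisson interval 0.301 to 1.32), 0.748 for Snhg5 (0.235 to 1.83) and 1.53 for Snhg12 (0.581 to 3.40). For Snhg1, Snhg18 and Snhg20, with 3 or 4 mitochondrial reads each, the ratios were 0.836 (0.219 to 2.28), 1.20 (0.233 to 3.94) and 0.614 (0.122 to 1.90). These intervals cover counting error only, and all 6 include equal levels as well as differences of more than 1.5 times. No member was at 0 in any library, whereas 63.8% and 31.2% of the listed lncRNAs were at 0 in mitochondria replicates 1 and 2.

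The 6 genes together gave more reads than any of them alone. Their summed normalized counts were 47 and 48 in mitochondria and 55 and 59 in the rest, from about 12, 19, 207 and 162 reads. The fractions did not overlap in this sum, and the ratio of mitochondria to rest, computed from the reads of both libraries together, was 0.843 (95% interval 0.564 to 1.22). Per 1000000 reads off the mitochondrial chromosome the sum was 10.4 and 9.14 in mitochondria and 21.4 and 21.2 in the rest. On that scale, however, the median of all genes tested was also lower in mitochondria, by a log2 difference of -0.98, and the median of the 6 members was -1.14. On the deposited scale the median log2 difference of the 6 members was -0.37 (range -0.63 to 0.17), beside -0.14 for the genes tested, -0.26 for all listed genes and -1.5 for the listed lncRNAs. Snhg12 and Snhg18, positive on the deposited scale, were negative when libraries were scaled to their totals, with or without the mitochondrial chromosome.

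Levels between genes were compared per 1000 bases of merged annotated exons. Where transcripts retain introns these lengths include intron, to an unequal degree. They cover all 2402 bases of Snhg12 and all 2969 of Snhg1, but 1486 of 4098 for Snhg18. The order below therefore depends on the annotation. In the rest, Snhg5 had 6.07 normalized counts per 1000 bases (range of the libraries 5.20 to 6.94) and Gas5 had 5.45 (5.32 to 5.59), and these ranges overlapped. Snhg12 followed with 2.91 (2.50 to 3.33), below Gas5 without overlap, and was not separated from Snhg18 (2.69), Snhg20 (2.68) or Snhg1 (2.53). In mitochondria the order of the levels per 1000 bases was Gas5 (4.12), Snhg5 (4.05), Snhg12 (3.96), Snhg18 (3.03), Snhg1 (2.19) and Snhg20 (1.61), and the ranges of all neighbours in this order overlapped.

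The comparison was extended to other genes that carry snoRNAs and to the proteins that act on snoRNAs and hosts. Of 14 other noncoding hosts 9 were listed and 6 tested, and 0 changed in either direction, with 0 at an unadjusted p under 0.05 (limma). Their median log2 difference was -0.57. Meg3 and Mir22hg were in this list but hold no snoRNA locus in the annotation, and the median of the other 7 was -1.21. Snhg14, the long imprinted host of brain-expressed snoRNA arrays, had 8 and 66 normalized counts in mitochondria and 25 and 38 in the rest, so the mitochondrial libraries lay on either side of the rest. Snhg17 had 0 and 10 against 15 and 15 (log2 difference -2.27, adjusted p = 0.286), and Dancr had 0 and 8 against 11 and 10 (-1.94), and neither passed the test.

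Most protein-coding hosts stood higher in mitochondria on the deposited scale. All 41 were listed and 40 tested, 14 of the 40 rose and 0 fell, beside 2.16% and 1.39% of all genes, and the median log2 difference was 1.15. In 32 of the 41 both mitochondrial values exceeded both rest values, against 23.0% of all listed genes. In 4 of the 41 both lay below, against 33.8% of all listed genes. Tpt1, a translationally controlled protein, had 3261 and 3880 normalized counts in mitochondria and 1003 and 1284 in the rest (log2 difference 1.65, SE 0.21, adjusted p = 0.0427). Rpsa, a protein of the small ribosomal subunit, had 2471 and 1990 against 517 and 541 (2.07, SE 0.18, adjusted p = 0.0427). Rpl23a, of the large subunit, had 159 and 64 against 26 and 23 (2.0, adjusted p = 0.078). The number of these hosts called higher was 4 when libraries were scaled to their total without the mitochondrial chromosome and 0 when the pseudocount was 0.1 or when any 1 library was left out. It was also 0 when libraries were scaled to whole totals, where all 62 tested genes of the comparison lists were called lower. On the deposited scale some ribosomal protein genes outside this list were higher too. Rpl35 had a log2 difference of 2.03 (adjusted p = 0.0427, limma) and Rpl36a of 1.49 (adjusted p = 0.0427). Rpl35a (1.34, adjusted p = 0.0549) and Rpl37a (1.31, adjusted p = 0.0646) did not pass the test. Rps10, with 0 and 3 against 5 and 3, was not tested, and such genes were not compared as a set. The difference between noncoding and protein-coding hosts was not tested.

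**Figure D2:**
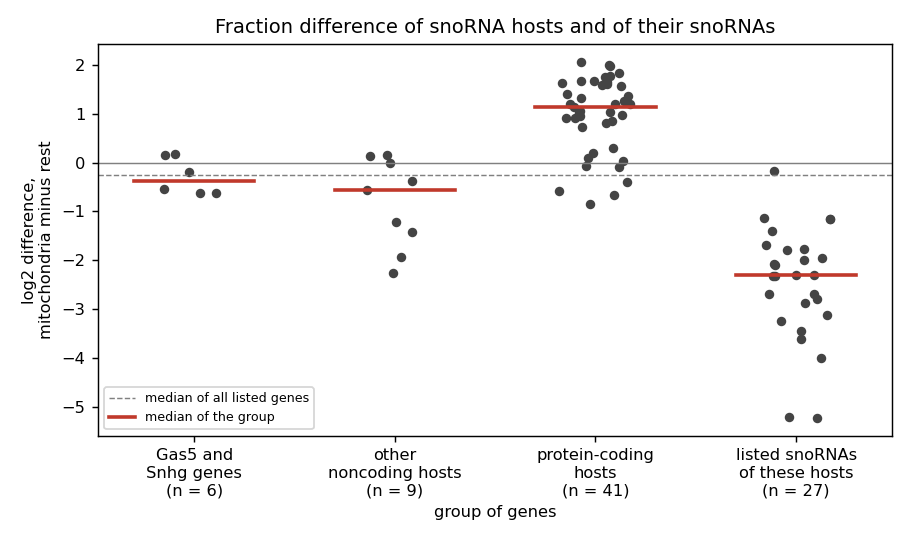
The plot shows the log2 difference, mitochondria minus rest, of normalized counts plus 1 for each listed gene of 4 groups, with 1 point per gene, a red line at the group median and a dashed line at the median of all listed genes (-0.26). The medians are -0.37 for Gas5 and the Snhg genes, -0.57 for other noncoding hosts (-1.21 without Meg3 and Mir22hg), 1.15 for protein-coding hosts and -2.29 for the snoRNAs carried by these hosts.

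The proteins of the snoRNP particles and their assembly factors (11 listed, 9 tested) gave 0 calls in either direction, with 1 at an unadjusted p under 0.05 (limma). Nop56, a core protein of the box C/D particle, had a log2 difference of -0.08 (adjusted p = 0.874). Nop10, a core protein of the H/ACA particle, had 50 and 41 normalized counts in mitochondria and 12 and 11 in the rest (1.89, SE 0.32, adjusted p = 0.0538), and Nhp2, of the same particle, had 35 and 26 against 10 and 20 (1.04, adjusted p = 0.209). Of the 10 nonsense-mediated decay factors, all tested, 1 fell and 0 rose. The 1 that fell was Smg1, the kinase of the decay factor Upf1, with 318 and 319 against 868 and 755 normalized counts (-1.34, SE 0.17, adjusted p = 0.0427). Upf3b (0.70, adjusted p = 0.159) and Upf2 (0.68, adjusted p = 0.0858) did not pass the test.

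Only 1 of the 31 snoRNA loci in the 10 hosts had values, Snord87 in Snhg6, the sequence given above. It had 0 and 0 normalized counts in mitochondria and 22 and 58 in the rest, from about 0, 0, 83 and 159 reads. It met the filter through the rest libraries alone, so its adjusted p of 0.0469 (limma) is a description and supports no direction. Its mean in the rest was 40 ± 25.5 (SD, n = 2). The level of 3 reads in each mitochondrial library had a mean of 9.64 normalized counts. The rest mean was 4.15 times that level, and the value of rest replicate 1 alone was 2.28 times. With any 1 library left out the fitted log2 difference of Snord87 stayed between -5.88 and -4.52. That size depends on the zeros in mitochondria and on the pseudocount. With a pseudocount of 0.1 Snord87 did not pass the test. Snhg6 itself is not analysed here, so host and snoRNA cannot be compared for this gene.

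Overlap with host exons was compared between snoRNA loci with and without values. None of the 27 member loci that overlap an annotated host exon had values, against 1 of the 4 that lie outside. In the protein-coding hosts 1 of 50 overlapping loci (2%) and 21 of 44 loci outside exons (47.7%) had values. In the other noncoding hosts, which include long arrays of snoRNAs, the shares were 1 of 18 (5.56%) and 3 of 214 (1.4%), so the order was the opposite there. Gm23201 in Zfas1 and Gm24616 in Eif4a2 overlap a host exon and had values. The part of the counting rule in this was not tested.

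**Figure D3:**
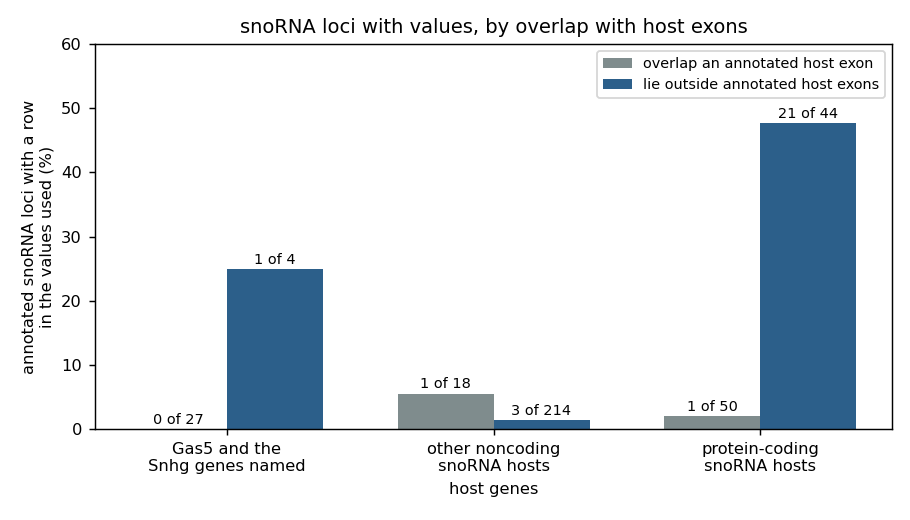
The bars give the percent of annotated snoRNA loci that had values, grey for loci that overlap an annotated exon of their host and blue for loci outside host exons, with the counts above each bar. In protein-coding hosts 1 of 50 overlapping and 21 of 44 other loci had values, and for Gas5 and the Snhg genes named here 0 of 27 and 1 of 4.

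The listed snoRNAs of other hosts give the context for Snord87. Over all 27 listed snoRNAs of noncoding and protein-coding hosts, the summed normalized counts were 137 and 56 in mitochondria and 740 and 640 in the rest. In 22 of the 27 both mitochondrial values lay below both rest values and in 0 above, against 33.8% and 23.0% of all listed genes. Only 9 of the 27 had both rest values above the level of 3 reads in the mitochondrial libraries, and 13 were at 0 in both mitochondrial libraries. The 13 were listed through the deeper rest libraries alone, so these counts are a description and support no direction. Snora21, carried by Rpl23, was detected in every library, with 31 and 18 normalized counts in mitochondria and 184 and 155 in the rest (log2 difference -2.78, SE 0.34, adjusted p = 0.0427, limma). Among other noncoding hosts, Scarna13 in Snhg10 had 0 and 3 against 44 and 22 (adjusted p = 0.0682, limma). The snoRNA Gm23639 in Epb41l4aos had 0 and 3 against 29 and 19 (adjusted p = 0.0777). Gm23201 in Zfas1 had 4 and 3 against 15 and 30 (adjusted p = 0.0786). All of these met the filter through the rest libraries alone, so their adjusted p-values are a description and support no direction.

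Host and snoRNA were both listed for 23 pairs from 17 hosts. Host exons had a positive log2 difference in 20 of the pairs. In 12 pairs the snoRNA was at 0 in both mitochondrial libraries and was listed through the rest alone, which fixes its side, so the pairs are a description. In the other 11 pairs the snoRNA had a value above 0 in mitochondria, and its log2 difference minus that of its host ranged from -5.31 to -1.01. Of these only Gm25835, Snord15a and Snora21 reached 3 reads in a mitochondrial library. Snora62 in Rpsa, at -5.31, rested on about 1 and 0 reads, so these pairs are a description too. For Zfas1, the only noncoding host among the 23 pairs, the annotated exons had 4 and 5 normalized counts in mitochondria and 4 and 4 in the rest. The annotated exons of Zfas1 together cover its whole gene body (2929 bases), so spliced and intron reads are not separated there. Its snoRNA Gm23201 had the values given above. For Rpsa the exons rose as described, while Gm26448 within it had 0 and 0 against 43 and 31. The difference within a pair was not tested. Host exons and snoRNAs also differ in length, and the fragmentation time set for mitochondrial RNA cannot be told apart from the fraction.

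**Figure D4:**
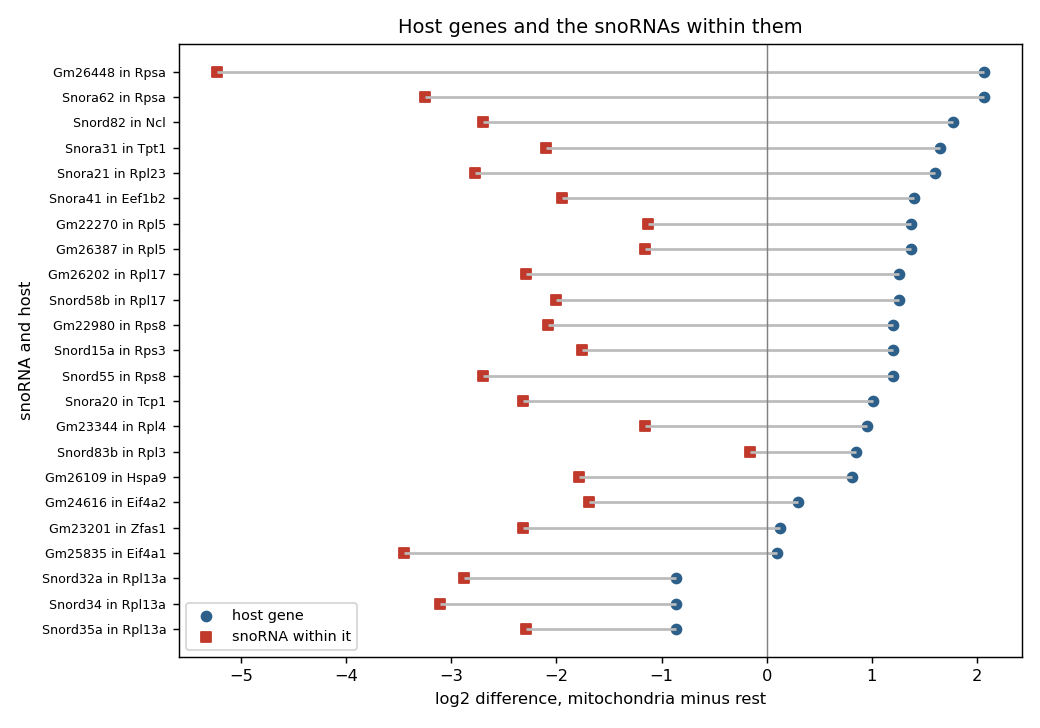
For each of 23 pairs the plot gives the log2 difference, mitochondria minus rest, of the host gene (blue circle) and of the snoRNA within it (red square), joined by a line. The squares lie at -0.16 to -5.23 and 20 circles lie right of 0, and for 12 squares, at 0 in both mitochondrial libraries, the side was fixed by their listing through the rest.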

How the data were processed

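RNA of the mitochondrial and the rest fraction of adult WT mouse hearts was sequenced with a stranded total RNA kit for low input, in 2 libraries per fraction. Per the labels, the submitters' processing notes name Trimmomatic 0.39, STAR 2.7.10a, featureCounts 2.0.2, DESeq2 1.30.1 and the build mm10 (GRCm38), and the study's methods give other versions for some of these tools. The authors counted reads on exons, left out reads that aligned to several places or touched several genes, divided the counts by a factor for each library and rounded. The deposited score for each gene and library is this normalized count.

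Because rounded normalized values are not counts, the fit chosen for counts was replaced by limma 3.58.1 (R 4.3.3) with a mean-variance trend on log2(value + 1). Log2 differences of low genes therefore depend on the added 1 and on zeros in single libraries, and can be too small or too large. Genes with at least 10 in at least 2 libraries were tested and adjusted p-values, by the Benjamini-Hochberg method, cover all of them. The fit was tested on simulated data. The numbers of reads were derived from the spacing of the values in each library and are approximate. Intervals are at 95%. Those of the log2 differences come from limma and measure the spread between libraries. Those of the ratios computed from reads cover counting error only. Whether libraries came from separate animals is not stated, so p-values measure the spread between libraries, which may be technical.

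Hosted snoRNAs were matched by position on the same strand within GENCODE M21 gene bodies, since bodies in the deposited table cover 6 of the 10 hosts. Starts came from RefSeq. Similar transcripts (at least 95% identity over 50 bases) were sought with blastn 2.17.0.

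The members and comparison lists were chosen with earlier results of these data known. Named were all members, listed genes with the highest mean or the 2 largest differences per list, called snoRNAs, and the 5 genes with the nearest profile. Zbtb37, the Snhg5 copies, the ribosomal protein genes outside the comparison lists, and the snoRNAs and Zfas1 in other hosts were chosen after their values were seen. Alternatives in scaling, filter, pseudocount, replicate block and left-out libraries were run.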

Additional observations from a re-analysis of the deposited data

How the results depend on the processing

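With whole library totals as the scale, where the median of the tested genes moved to -3.93, 2 members were called lower (0 as deposited), 62 genes of the comparison lists lower (1 as deposited) and 0 higher (14 as deposited), and the members' median log2 difference was -3.68. With totals without the mitochondrial chromosome these were 6 lower, 4 higher and a median of -1.14. Comparison-list genes numbered 27 higher among those with a mean above 50, 22 higher with a pseudocount of 10, and 0 in each direction with a pseudocount of 0.1, where Snord87, the 1 listed snoRNA of the members, was also not called (0 against 1). The bodies of the deposited table, an alternative chosen after seeing the data, held 0 snoRNAs with values, so 0 were called. With 1 library left out, counts for the comparison lists and the members' snoRNA ranged from 0 to 0 and the members' median from -0.48 to -0.22, with the lone library assumed to vary like the other fraction. Gas5 ranged from -1.26 to 0.16, positive without mitochondria replicate 2. No member passed a mean above 50. Trimmed mean scaling and no filter left these counts within 1.5 times. With the replicate number as a block, 22 comparison-list genes were higher, and 309 genes of all were lower and 470 higher against 169 and 262, with 0 members. Replicate differences of the fractions correlated at r = 0.13 over 12150 genes, and 2 numbers do not establish a pairing. The causes were not tested. Depth limited the members: they had 1 to 6 reads in each mitochondrial library.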

Other observations

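Among tested genes with a mean above 50 normalized counts, the 5 whose centred log2 values over the 4 libraries lay nearest to the mean profile of the 2 tested members, Gas5 and Snhg5, were Intu (Euclidean distance 0.032, log2 difference -0.57), Xpr1 (0.0378, -0.55), Zfp568 (0.0409, -0.62), Sulf2 (0.0532, -0.58) and Hook3 (0.0537, -0.63). All 5 are protein-coding. Hook3, the most abundant, had 290 and 260 normalized counts in mitochondria and 401 and 454 in the rest. With 4 libraries, and with Gas5 and Snhg5 differing in which mitochondrial library was higher, this likeness is a description only.

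Of the other marker lists, endothelial markers (4 of 4 listed) had a median log2 difference of -0.76, fibroblast markers (4 of 4) 1.02 and macrophage markers (4 of 4) 0.88. Neuron and Schwann markers were represented by 1 gene of 5, at -0.47. Limma called none of the genes in the 7 marker lists at an adjusted p under 0.05, and 16 of them had an unadjusted p under 0.05.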
